A study of Homo sapiens with 23 samples.

Results

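REST, RCOR1, CTDSP1, CTDSP2 and CTDSPL were taken by gene symbol as 5 genes of the 61217 listed in each of the authors' 6 deposited comparison tables, and all 5 were present in every table. REST is a zinc finger repressor that binds a DNA element beside many neuronal genes and keeps them silent outside neurons. RCOR1 (CoREST) is the scaffold that joins REST to histone deacetylases and the demethylase KDM1A. CTDSP1, CTDSP2 and CTDSPL are small phosphatases that act on the C-terminal domain (CTD) of RNA polymerase II, and REST can recruit them to neuronal genes. miR-124-3p is a microRNA abundant in neurons, and CTDSP1 is among its known targets. On GRCh38 (GENCODE release 29), REST lies at chr4:56907876-56966678, RCOR1 at chr14:102592661-102730576, CTDSP1 at chr2:218398256-218405941 and CTDSPL at chr3:37861960-37984469 on the plus strand, and CTDSP2 at chr12:57819927-57846739 on the minus strand.

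RNA was measured by polyA sequencing in C-33A cells, an HPV-negative cervical squamous carcinoma line, and in CaSki cells, an HPV-positive cervical squamous carcinoma line of metastatic origin. Each line received miR-124-3p, miR-218-5p, miR-23b-3p or a negative control, each at 100 nM. The labels give the microRNA's name and its dose only, and the added microRNA is called a mimic here. The 23 samples form 8 groups of 3, except C-33A with miR-124-3p, which has 2. The titles number the samples RB1 to RB3 in each group of a line, and those of C-33A with miR-124-3p are RB2 and RB3. Nothing in the labels tells what a number shares or if replicates were grown as separate cultures, and the spread behind the p-values may thus be technical. The values are those of the deposited tables, with no value per sample, and sample depth is unknown. A gene is called measured below where its average log2 CPM (a read abundance scaled to library size, over the libraries of a comparison) was at least 0. Of 8 epithelial markers, KRT8 and KRT18 alone were measured in C-33A, at 0.63 and 0.65 in the authors' deposited table for miR-124-3p, and all 8 were measured in CaSki.

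The 3' UTRs show where the added microRNAs could pair. A site was a match to seed positions 2 to 8 of the microRNA within the 3' UTR of each gene's longest coding transcript (GENCODE release 29, GRCh38), read on the mRNA strand. The letters searched were GTGCCTT for miR-124-3p, AATGTGA for miR-23b-3p and AAGCACA for miR-218-5p. A match followed by an A is an 8mer, and any other is a 7mer. A miR-124-3p match was present in 4 of the 5 genes, against 13.9% of the 19115 coding genes with a 3' UTR. The 5 genes were chosen as a set known for miR-124 targets, so this share is not independent of the choice. The share over coding genes is not matched for 3' UTR length. CTDSP1 held 4 matches in a 3' UTR of 1516 bases, and 2.19% of genes held 2 or more. CTDSP2, CTDSPL and RCOR1 held 1 match each, in 3' UTRs of 3675, 3602 and 4070 bases. REST held none in any of 4 coding transcripts with an annotated 3' UTR. All of these miR-124-3p matches were 7mers, so none of the 5 genes was among the 2.81% of genes with an 8mer.

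These windows are shown because they hold every miR-124-3p match of the 5 genes. The sequences are from GENCODE transcripts, 5' to 3', with the match in capitals.
CTDSP1, chr2:218404610-218404639, plus strand: gtgagctccaggccccgtgtcaGTGCCTTc
CTDSP1, chr2:218404799-218404828, plus strand: gtctgggaacggtggacatcaaGTGCCTTg
CTDSP1, chr2:218405492-218405521, plus strand: cctccttgcccatccttcaccgGTGCCTTt
CTDSP1, chr2:218405858-218405887, plus strand: atcaggtggccttcccatttaaGTGCCTTc
CTDSP2, chr12:57823543-57823572, minus strand: cagtaggggactttcccacactGTGCCTTt
CTDSPL, chr3:37981243-37981272, plus strand: aatctctttcctacaggatgaaGTGCCTTt
RCOR1, chr14:102727332-102727361, plus strand: ggtgcttgtaaatttggaattgGTGCCTTc
In CTDSP1 the matches began 207, 396, 1089 and 1455 bases after the stop codon. The match of CTDSP2 began 52 bases after it, that of CTDSPL 398 and that of RCOR1 848. The CTDSP2 match lay in the 3' UTR of all 4 of its coding transcripts with an annotated 3' UTR, whereas the first CTDSP1 match lay in 2 of 4 and each of the others in 1 of 4.

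The other mimics had fewer matches among the phosphatases. The mature sequences of these mimics are given as RefSeq has them (GRCh38.p14), with seed positions 2 to 8 in capitals.
hsa-miR-23b-3p: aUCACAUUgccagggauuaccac
hsa-miR-218-5p: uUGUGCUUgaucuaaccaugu
CTDSP1 and CTDSP2 held no match to either seed. REST and CTDSPL held 1 7mer for each, and RCOR1 held 1 8mer for each, against 8.61% of genes with an 8mer for miR-23b-3p and 4.39% for miR-218-5p.

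**Figure D1:**
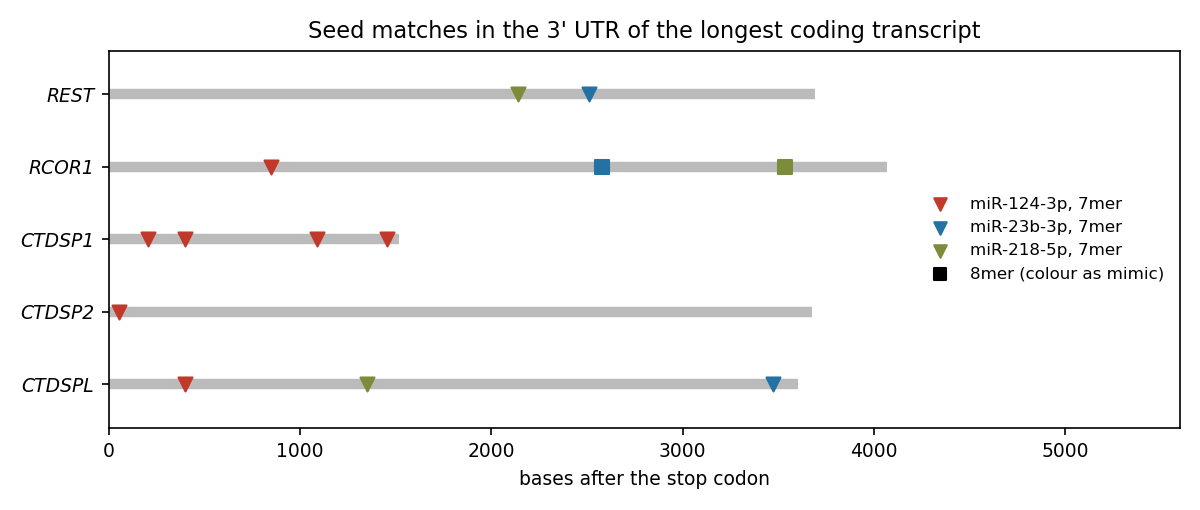
Seed matches in the 3' UTRs of the 5 genes. Grey bars run from the stop codon to the end of the 3' UTR (x axis, bases), triangles are 7mers, squares are 8mers and colours give the mimic; CTDSP1 holds 4 miR-124-3p matches in the shortest of the 3' UTRs and REST holds none.

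With miR-124-3p, CTDSP1 fell in both lines. In the authors' deposited table for C-33A its log2 fold change was -0.93, with a recovered standard error (SE) of 0.197, which is 52.5% of the control level (adjusted p = 0.00321, edgeR with Benjamini-Hochberg adjustment over all listed genes). For CaSki the authors' deposited table gives -1.37, with a recovered SE of 0.215, or 38.7% of the control level (adjusted p = 1.75e-06). In bulk RNA, fewer cells with the transcript and less of it per cell cannot be told apart. Among measured coding genes, CTDSP1 had the 6th lowest p of 11668 in CaSki and the 42nd lowest of 11276 in C-33A.

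CTDSPL, a phosphatase also known to act on the retinoblastoma protein, fell in CaSki, to 67.9% of the control level, with a log2 fold change of -0.56 in the authors' deposited table (adjusted p = 0.0438, recovered SE 0.145). Its log2 fold change in C-33A was -0.43 in the authors' deposited table, with a 95% interval of -0.83 to -0.03, and it was not called (adjusted p = 1). The CaSki call was close to the threshold: with fold changes centred on the median coding gene (a shift of 0.019) the adjusted p was 0.0614. CTDSP2 was not called in either line. Its log2 fold change in the authors' deposited tables was -0.36 in C-33A (interval -0.73 to 0.003) and -0.38 in CaSki (interval -0.64 to -0.12), with unadjusted p of 0.052 and 0.00379.

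REST and RCOR1 were not called with miR-124-3p, and their estimates lay above 0 in both lines. For REST the log2 fold change in the authors' deposited tables was 0.10 in C-33A (interval -0.23 to 0.43) and 0.28 in CaSki (interval 0.016 to 0.54). RCOR1, which holds a miR-124-3p match, had 0.08 in C-33A (interval -0.26 to 0.42) and 0.27 in CaSki (interval 0.01 to 0.53) in the authors' deposited tables. Relative to genes of like transcript length, the CaSki values were 0.17 for REST and 0.21 for RCOR1 (adjusted p = 0.594 and 0.458). In all, 1 of 5 genes fell in C-33A and 2 of 5 in CaSki, and none rose. Over all listed genes 0.131% fell in C-33A and 0.203% in CaSki, and over measured coding genes 0.683% and 0.968%. The shares that rose over all listed genes were 0.031% and 0.103%.

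**Figure D2:**
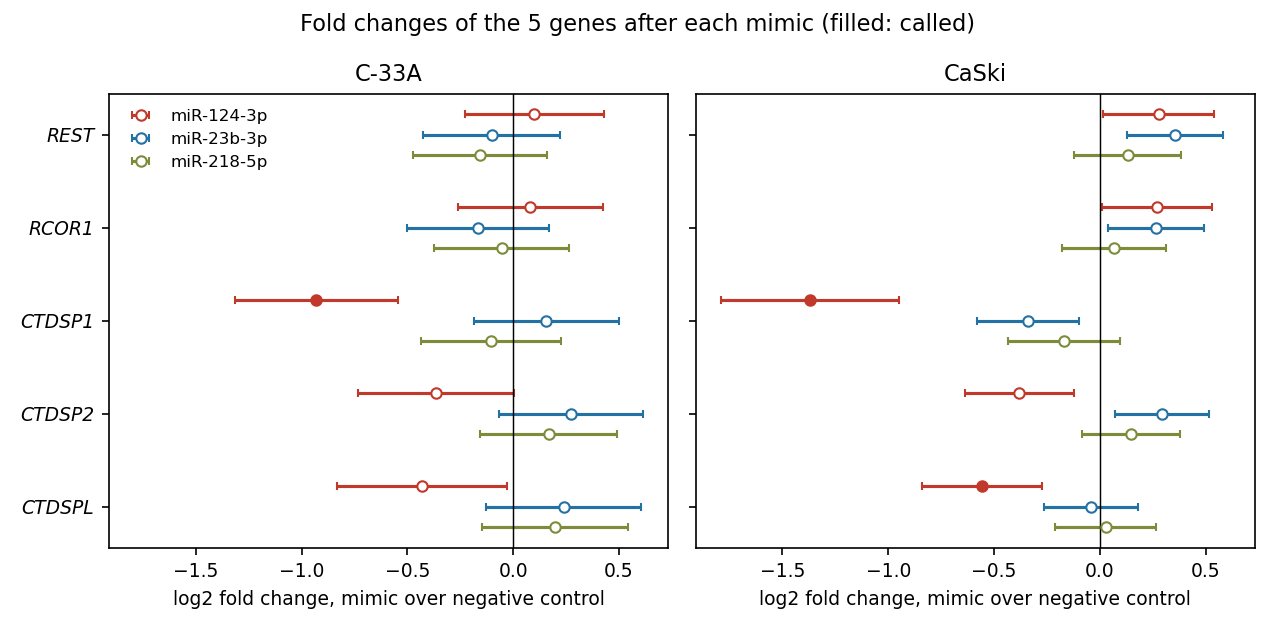
Log2 fold changes of the 5 genes, mimic over negative control, in C-33A (left) and CaSki (right). Points are deposited fold changes, bars are 95% intervals from recovered SEs, colours give the mimic and filled points are called at an adjusted p under 0.05; the filled points are CTDSP1 with miR-124-3p in both lines and CTDSPL in CaSki.

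The phosphatases were set beside coding genes with as many miR-124-3p matches. Genes with 4 or more matches had a median log2 fold change of -0.17 in C-33A (17 genes) and 0.12 in CaSki (15 genes) in the authors' deposited tables. CTDSP1 had the lowest value of this class in CaSki and the second lowest in C-33A. With CTDSP1 itself counted, 11.8% of the class fell in C-33A (2 genes) and 20.0% in CaSki (3 genes). Of genes with 0 matches, 0.19% fell in C-33A and 0.25% in CaSki. Genes with 1 match had a median of -0.083 in C-33A (1584 genes) and -0.069 in CaSki (1642 genes), and 2.46% and 3.90% of them fell. In this class CTDSPL stood at rank 230 from the lowest in C-33A and 134 in CaSki. CTDSP2 stood at rank 285 in C-33A and 280 in CaSki, and RCOR1 at 1134 and 1428, in the upper part of the class. The order CTDSP1, CTDSPL, CTDSP2 was the same in both lines, and the intervals of CTDSP1 (-1.79 to -0.95) and CTDSPL (-0.84 to -0.28) did not overlap in CaSki. In C-33A those of CTDSP1 (-1.32 to -0.54) and CTDSPL did overlap. The intervals of CTDSPL and CTDSP2 overlapped in both lines, so the order of these genes is not resolved.

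**Figure D3:**
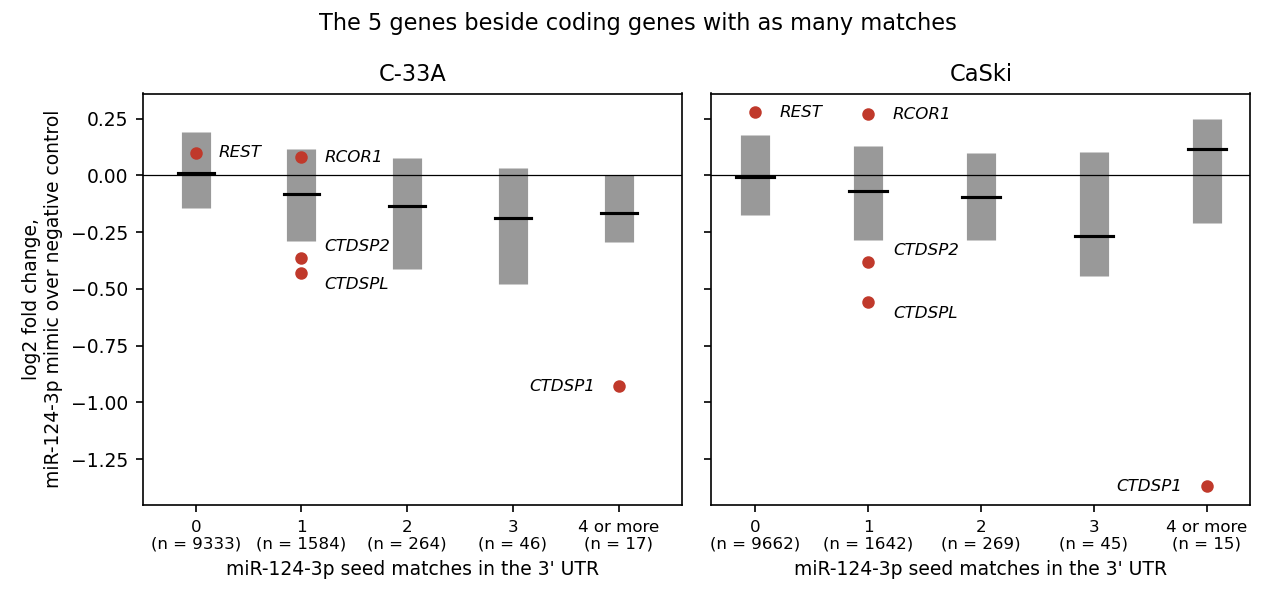
Log2 fold change with miR-124-3p over negative control (y axis) by number of seed matches in the 3' UTR (x axis). Grey bars span the quartiles of measured coding genes, black lines are medians and red points are the 5 genes; CTDSP1 lies below the bar of its class in both lines, CTDSP2 and CTDSPL lie below theirs, and REST and RCOR1 lie above 0.

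With miR-124-3p, no difference between the lines was called for any of the 5 genes, nor for any other of the 12970 genes tested. An unadjusted p under 0.05 was held by 325 of the 12970 (normal test). The lack of a call is thus not particular to the 5 genes. CTDSP1 had a C-33A minus CaSki difference of 0.44 in log2 fold change (interval -0.13 to 1.01, unadjusted p = 0.131, adjusted p = 1 over 12970 genes, normal test with recovered SEs). For CTDSPL the difference was 0.13 (interval -0.37 to 0.62) and for CTDSP2 0.017 (interval -0.43 to 0.47).

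The miR-23b-3p and miR-218-5p comparisons share the control samples of each line with the miR-124-3p comparison, so the values are given side by side. CTDSP1 in C-33A stood at 0.16 with miR-23b-3p and -0.10 with miR-218-5p in the authors' deposited tables. In CaSki it stood at -0.34 and -0.17 in these tables. CTDSP2 was above 0 with both of these mimics, at 0.27 and 0.17 in C-33A and at 0.29 and 0.15 in CaSki in the authors' deposited tables. CTDSPL was at 0.24 and 0.20 in C-33A and at -0.04 and 0.03 in CaSki in the authors' deposited tables. Each phosphatase was thus lower with miR-124-3p than with either of the other mimics of its line. Against the mean of those mimics, which takes the controls out, the miR-124-3p values in C-33A and CaSki were -0.96 and -1.11 for CTDSP1, -0.58 and -0.60 for CTDSP2, and -0.65 and -0.55 for CTDSPL. The same values were 0.23 and 0.03 for REST and 0.19 and 0.10 for RCOR1. These contrasts have no test, because the deposited tables do not give the error of a difference between mimics.

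With miR-23b-3p, 0 of the 5 genes were called in either line by the authors' edgeR test. Over all listed genes 0.0474% were called in C-33A and 2.4% in CaSki. An unadjusted p under 0.05 was held by 0 of the 5 in C-33A and 4 in CaSki, where 4.23% of measured genes in C-33A and 29.7% in CaSki had such a p. REST had the lowest p of the 4, with a log2 fold change of 0.36 in CaSki in the authors' deposited table (interval 0.13 to 0.58, adjusted p = 0.0705). It was called there when p-values were adjusted over coding genes only. REST has a long transcript, of 7300 bases, and fold changes in this table went with transcript length: the 500 coding genes nearest in length to REST had a median of 0.197, and REST lay 0.158 above it (adjusted p = 0.403). The others of the 4 were CTDSP1 at -0.34, CTDSP2 at 0.29 and RCOR1 at 0.27 in the authors' deposited table (adjusted p = 0.143, 0.198 and 0.31), and relative to genes of like length they were -0.229, 0.227 and 0.155. CTDSPL stood at -0.04 in the authors' deposited table. REST and RCOR1 in C-33A were at -0.10 and -0.17 in the authors' deposited table. The differences between lines with miR-23b-3p were -0.46 for REST, -0.43 for RCOR1 and 0.50 for CTDSP1 (unadjusted p = 0.0235, 0.036 and 0.0206, and adjusted p = 0.231, 0.279 and 0.219, normal test). For CTDSP2 and CTDSPL they were -0.023 and 0.28 (unadjusted p = 0.913 and 0.199, normal test). Of the 12905 genes tested, 2016 had an unadjusted p under 0.05 and 220 were called.

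With miR-218-5p, 0 of the 5 genes were called in either line by the authors' edgeR test, and 0 had an unadjusted p under 0.05. Log2 fold changes in the authors' deposited tables ran from -0.16 (REST) to 0.20 (CTDSPL) in C-33A and from -0.17 (CTDSP1) to 0.15 (CTDSP2) in CaSki. Over all listed genes 0.0751% were called in C-33A and 0.0245% in CaSki. The intervals for REST, a gene with a miR-218-5p 7mer, were -0.47 to 0.16 in C-33A and -0.12 to 0.38 in CaSki, and those for RCOR1, with an 8mer, were -0.37 to 0.27 and -0.18 to 0.31.

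Levels were read from the average log2 CPM of each comparison, taken over mimic and control libraries together, less the log2 of the transcript length in kilobases, so that genes could be compared. The middle of the values from the 3 comparisons of a line is given. In C-33A the order was REST at 4.58, CTDSP1 at 4.09, RCOR1 at 3.75, CTDSP2 at 3.46 and CTDSPL at 2.74 log2 CPM per kilobase. In CaSki it was CTDSP2 at 4.26, CTDSP1 at 4.25, RCOR1 at 4.09, CTDSPL at 3.61 and REST at 3.51. Over the comparisons of CaSki the ranges of CTDSP2 (4.02 to 4.32), CTDSP1 (3.82 to 4.28) and RCOR1 (4.04 to 4.17) overlapped, as did those of CTDSPL (up to 3.65) and REST (3.50 to 3.59), so the order within each of these sets is not resolved. In C-33A no neighbouring ranges overlapped. The comparisons share libraries, and the spread over samples cannot be given. Between the lines, before the length scaling, REST had an average log2 CPM of 7.44 in C-33A and 6.37 in CaSki. CTDSP2 and CTDSPL ran the other way, at 5.73 and 4.95 in C-33A and at 6.52 and 5.83 in CaSki. The lines were normalized in separate tables, so these differences of 1.07, -0.79 and -0.88 are descriptions with no test.

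The phosphatase genes also share a feature of position. Each carries a gene of the miR-26 family on its own strand in an intron of the transcript described above: MIR26B in intron 4 of CTDSP1 (chr2:218402646-218402722), MIR26A2 in intron 5 of CTDSP2 (chr12:57824609-57824692) and MIR26A1 in intron 4 of CTDSPL (chr3:37969404-37969480). The mature 5p sequences are shown because they have the same seed, in capitals.
hsa-miR-26b-5p, in CTDSP1: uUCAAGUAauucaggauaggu
hsa-miR-26a-5p, in CTDSP2 and CTDSPL: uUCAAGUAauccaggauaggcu
These libraries were made from polyA RNA, and the 3 precursor genes were listed at average log2 CPM under 0 in all 6 of the authors' deposited tables, so the mature microRNAs were not measured. No other annotated gene overlapped an exon of the transcript described for any of the 5 genes, although antisense or other genes lie within or across the loci of CTDSP1, CTDSP2, RCOR1 and REST.

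The other genes of the pathway were counted from lists. REST corepressor partners include the deacetylases, the SIN3 scaffolds and chromatin remodelers. With miR-124-3p, 0 of 20 were called in either line by the authors' edgeR test, where 0.162% of all listed genes were called in C-33A and 0.305% in CaSki. At an unadjusted p under 0.05, 7 were higher and none lower in C-33A, and 6 were higher and none lower in CaSki. Over all measured genes, 9.57% in C-33A and 14.7% in CaSki had such a p, in either direction. The median log2 fold change of measured partners was 0.24 in C-33A, with 17 of 19 above 0, and 0.16 in CaSki, with 13 of 20 above 0, beside medians of -0.002 and -0.017 over all measured coding genes. Relative to genes of like transcript length, the medians were 0.32 over 17 genes and 0.12 over 18 genes. Over all measured coding genes, 49.5% in C-33A and 47.1% in CaSki lay above 0. With miR-23b-3p the partner medians were 0.084 in C-33A (15 of 19 above 0) and 0.045 in CaSki (12 of 20). With miR-218-5p they were 0.060 (13 of 19) and 0.050 (13 of 20). Of all measured coding genes, 55.3% in C-33A and 48.6% in CaSki lay above 0 with miR-23b-3p. With miR-218-5p these shares were 40.9% and 53.0%. Relative to genes of like length, the partner medians in C-33A and CaSki were 0.060 and -0.040 with miR-23b-3p. They were 0.058 and 0.024 with miR-218-5p. Most partners thus lay above 0 with each mimic in the deposited values. The medians were highest with miR-124-3p, also relative to genes of like length. With miR-124-3p the ATPase SMARCA4 had the lowest p in both lines. It stood at 0.57 in C-33A and 0.67 in CaSki in the authors' deposited tables (adjusted p = 0.308 and 0.152). SMARCC2, a subunit of the same remodeler, stood at 0.48 and 0.38, and the scaffold SIN3A at 0.35 and 0.48 in the authors' deposited tables.

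Neuronal genes known to carry a REST element had a median of 0.17 over 25 measured genes in C-33A with miR-124-3p and 0.10 over 24 in CaSki, and 0 of 41 were called in either line by the authors' edgeR test. At an unadjusted p under 0.05, 2 of the 41 were higher and 2 lower in C-33A, while 6 were higher and none lower in CaSki. These counts run over all 41 genes, measured or not. The 9.57% in C-33A and 14.7% in CaSki with such a p are shares of measured genes only. Relative to genes of like length, the medians were 0.076 over 15 genes in C-33A and 0.18 over 13 genes in CaSki. Such values were given only to genes with an average log2 CPM of at least 2. The line with the higher median changed, but so did the set of genes, and which of length and set did this was not tested. BSN, a presynaptic scaffold, stood at 0.69 in C-33A and 0.51 in CaSki (adjusted p = 0.885 and 1), and CELSR3, an adhesion receptor of developing neurons, at 0.41 and 0.32 (adjusted p = 1 and 0.77) in the authors' deposited tables. INA, a neuronal intermediate filament protein, had opposite signs in the lines, at -0.40 in C-33A and 0.33 in CaSki (adjusted p = 1 and 0.769) in the authors' deposited tables. With miR-23b-3p the list median was 0.089 over 24 measured genes in C-33A and 0.20 over 23 in CaSki. With miR-218-5p it was 0.033 over 23 and 0.080 over 24. In CaSki 16 of 24 lay above 0 with miR-124-3p, 14 of 23 with miR-23b-3p and 18 of 24 with miR-218-5p. Over all measured coding genes of CaSki the shares above 0 were 47.1%, 48.6% and 53.0% in the same order. In C-33A the counts were 15 of 25, 16 of 24 and 15 of 23, beside 49.5%, 55.3% and 40.9%. A median above 0 was thus not particular to miR-124-3p.

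The remaining lists had 0 called genes with miR-124-3p by the authors' edgeR test, and their counts at an unadjusted p stand beside the same 9.57% in C-33A and 14.7% in CaSki over all measured genes. For the REST turnover factors the median was -0.007 in C-33A and 0.074 in CaSki over 9 genes, with 0 and 2 at an unadjusted p under 0.05. BTRC, the ubiquitin ligase subunit that marks REST for degradation, stood at 0.21 in C-33A and 0.41 in CaSki in the authors' deposited tables (adjusted p = 1 and 0.539). Other CTD phosphatases and relatives had medians of -0.02 and -0.14 over 8 genes, with 1 and 0 at an unadjusted p under 0.05. That gene was CNEP1R1, at -0.49 in C-33A and -0.26 in CaSki in the authors' deposited tables, and it is the regulatory partner of the phosphatase CTDNEP1. CTD kinases and cyclins had medians of -0.014 and 0.011 over 11 genes, with 1 and 0 at an unadjusted p under 0.05. That gene was CCNH, the cyclin partner of CDK7, at -0.46 in C-33A and -0.16 in CaSki in the authors' deposited tables. Reported substrates of the small phosphatases had medians of 0.019 and 0.061 over 7 measured genes, with 0 and 2 at an unadjusted p under 0.05. These were RB1, the retinoblastoma protein, at 0.02 in C-33A and 0.49 in CaSki, and SMAD3, a TGF-beta signal transducer, at 0.40 in both lines in the authors' deposited tables (CaSki adjusted p = 0.136 and 0.353). The epithelial markers, 8 measured in CaSki, had a median of -0.04 there, with 2 higher and none lower at an unadjusted p under 0.05. Relative to genes of like length, RB1 and the epithelial marker EPCAM passed in CaSki, at 0.45 and 0.59 (adjusted p = 0.0483 and 0.00175).

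Several of these genes stood near the same values with the other mimics, whose comparisons share the controls. In CaSki with miR-23b-3p and with miR-218-5p, the authors' deposited tables give 0.46 and 0.40 for BTRC, 0.60 and 0.67 for BSN, 0.64 and 0.37 for SMAD3, and 0.85 and 0.48 for SMARCA4. In C-33A with miR-218-5p the authors' deposited table gives 0.39 for SMAD3 and -0.43 for INA. SIN3A in CaSki stood at 0.68 with miR-23b-3p and 0.32 with miR-218-5p, and SMARCC2 at 0.41 and 0.27. In C-33A the same mimics gave 0.11 and 0.12 for SIN3A and 0.06 and 0.01 for SMARCC2. INA in CaSki stood at 0.36 with miR-23b-3p and 0.03 with miR-218-5p. These too are values of the authors' deposited tables.

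**Figure D4:**
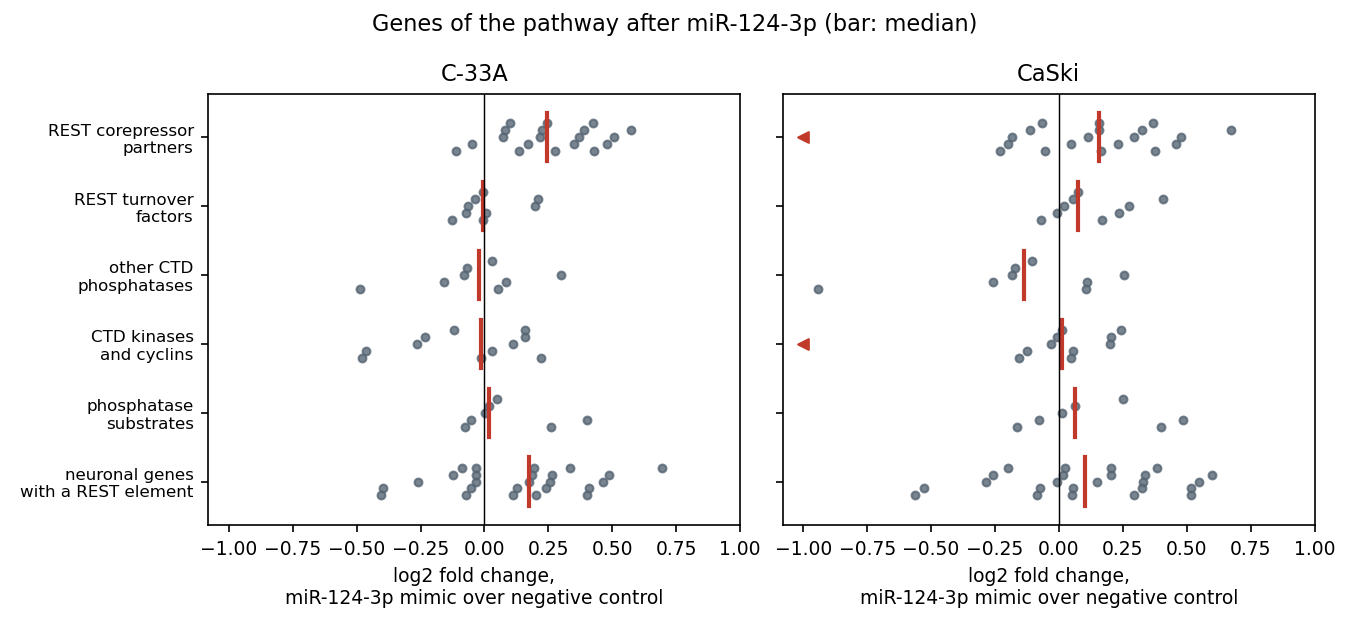
Log2 fold change with miR-124-3p over negative control (x axis) for the measured genes of 6 lists (rows) in C-33A (left) and CaSki (right). Points are genes, red bars are list medians and triangles at the left edge are genes below the axis; the corepressor partners lie mostly right of 0, with medians of 0.24 and 0.16.

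Of the 6 comparisons, the one of miR-23b-3p in CaSki alone had called genes in these lists. It was the comparison with the most calls (1.41% of listed genes rose and 0.995% fell, and 6.18% and 4.44% of measured coding genes did so). On the log2 scale, 3 of the corepressor partners rose, SMARCA4 by 0.85, SIN3A by 0.68 and RCOR3, a paralog of RCOR1, by 0.57, and 1 fell, HMG20B by 0.43, in the authors' deposited table (adjusted p = 3.06e-05, 0.000243, 0.0291 and 0.00979). Relative to genes of like length the rises of these 3 still passed (adjusted p = 0.00021, 0.00383 and 0.0163) and HMG20B did not (0.244). The phosphatase substrates SMAD3 and RB1 rose by 0.64 and 0.41 in the authors' deposited table (adjusted p = 0.000312 and 0.035), and passed relative to genes of like length (0.00548 and 0.0435). CELSR3 and the kinase CDK13 rose by 0.48 and 0.40, and the cyclin CCNH fell by 0.45, in the authors' deposited table (adjusted p = 0.0225, 0.0427 and 0.0495). None of these 3 passed relative to genes of like length (adjusted p = 0.458, 0.635 and 0.153). Other list genes, the phosphatase CTDNEP1 at 0.61 among them (adjusted p = 0.000756), passed only relative to genes of like length. Of the 8 epithelial markers 3 fell and 0 rose, and at an unadjusted p under 0.05 there were 4 lower and 2 higher, with TP63 at 0.38 (p = 0.00248) in the authors' deposited table. The keratins KRT8, KRT19 and KRT17 fell by 0.58, 0.44 and 0.38 in the same authors' deposited table, and relative to genes of like length KRT8 alone of these passed (adjusted p = 0.00397, 0.307 and 0.404).

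The genes whose 6 log2 fold changes lay nearest those of CTDSP1, of 8663 coding genes whose average log2 CPM was at least 2 in all tables, were STX10, DNAJC1 and NECAP2, at Euclidean distances of 0.194, 0.242 and 0.321. STX10 stood at -0.99 with miR-124-3p in C-33A and -1.21 in CaSki in the authors' deposited tables. DNAJC1 stood at -0.89 and -1.18 and NECAP2 at -0.95 and -1.09 in the authors' deposited tables. Each of these genes held 1 miR-124-3p match. Those nearest CTDSPL were CTNS, PSKH1 and ARHGEF1, at distances of 0.160, 0.193 and 0.211, with 1, 3 and 1 matches.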

How the data were processed

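Per the submitters' processing notes, the tools were edgeR 3.36.0, featureCounts 2.0.3, STAR 2.7.10b and FastQC 0.73, and the build was GRCh38 (hg38). Per the file headers, each of the 6 deposited tables holds the log2 fold change of mimic over control beside the average log2 CPM, and an F score with its p-value and FDR (adjusted p). Adjusting the deposited p-values by Benjamini-Hochberg gave the deposited FDR over all 61217 listed genes, with no filter on expression. Solving F and p for the denominator degrees of freedom gave medians of 183651 and 244868 in the C-33A tables and 25.7 to 38.2 in the CaSki tables, so C-33A p-values rest on a spread pooled over genes. No source used here states if reads were counted by strand.

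A gene was called at a deposited FDR under 0.05. SEs are the log2 fold change over the normal quantile of the deposited p-value, and 95% intervals follow from them. In the CaSki tables, with their low denominator degrees of freedom, such SEs are larger than those from the F score. This is most so at a small p, as for CTDSP1 with miR-124-3p, so its CaSki interval and line difference rest on a wide SE. Fold changes of C-33A and CaSki were set against each other by a normal test of their difference (checked on simulated data), adjusted over genes measured (average log2 CPM at least 0) in both tables. Values relative to genes of like length subtract the median of the 500 coding genes nearest in transcript length, a choice made after seeing the data. Transcripts are from GENCODE release 29. Python 3.11.15, pandas 2.3.3 and scipy 1.17.1 were used.

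The 5 genes and the 7 lists, put together from background knowledge, were chosen with earlier results of these data known. All 5 genes are named. From each list the text could name called genes (the 6 with the lowest p) and the 2 with the lowest p after miR-124-3p in each line, and for each called member the 3 genes with the nearest fold changes. The values of 1 gene that this rule names are not reported here.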

Additional observations from a re-analysis of the deposited data

How the results depend on the processing

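No paired analysis was possible because the deposited tables hold no values per sample. For the same reason, leaving out each replicate, another normalization and another count test were not run. The count of called genes among the 5 was recomputed with other thresholds, other sets of genes for the adjustment, centred fold changes and SEs from the F score, and, chosen after seeing the data, relative to genes of like transcript length. In C-33A it was 1 with miR-124-3p and 0 with the other mimics under each of these. In CaSki with miR-124-3p it was 2, and it was 1 at an FDR under 0.01 and with centred fold changes, where CTDSP1 remained and CTDSPL did not. It was 3 relative to genes of like length, where CTDSP2 was added at -0.42 (adjusted p = 0.048). In CaSki with miR-23b-3p it was 0, and it was 1 at an FDR under 0.10, 1 adjusted over protein coding genes, 1 with SEs from the F score and 2 adjusted over measured genes. REST was called in each of these, and CTDSP1 in the last. The cause was not tested. In CaSki with miR-218-5p it was 0 throughout. No sign of a called value turned. The count of called differences between lines among the 5 genes was 0 for each mimic under both alternatives. In the main setting, 0 of 12970 genes tested had a called difference with miR-124-3p. With miR-23b-3p it was 220 of 12905 genes, and with miR-218-5p 0 of 12902. With a match to positions 2 to 7 only, 5 of the 5 genes held a miR-124-3p match, against 44.1% of genes. This share, too, is not independent of the choice of genes and is not matched for 3' UTR length.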

Other observations

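A pair of genes on the lists had large fold changes with large errors in the CaSki tables. EHMT2, a histone methyltransferase that works with REST, stood at -11.88, -12.40 and -11.92 with miR-124-3p, with miR-23b-3p and with miR-218-5p in the authors' deposited tables (SE 9.87, 12.0 and 9.85), and CDK7, a CTD kinase, at -4.14, -4.67 and -3.84 (SE 2.56, 2.64 and 2.47). Neither was called, they were chosen after their values were seen, and the comparisons share the CaSki control samples.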
